A study of Homo sapiens with 4 samples.

Results

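The 7 genes described here are SPARC, TIMP3, LRRN2, SLC16A3, KIAA1549L, CARMIL2 and RIMBP2. They were chosen by their levels in these libraries: each was lower in both tKO libraries than in both dKO libraries of HAP1, a near-haploid human cell line. Both genotypes lack RING1A and RING1B, the enzymes of the Polycomb complex PRC1. The tKO cells also lack BAP1, the enzyme that removes the ubiquitin placed by PRC1 on histone H2A. All cells were untreated, and transcripts were measured by stranded RNA-seq in 2 libraries per genotype. RING1A and BAP1 had been interrupted by an inserted STOP cassette in picked clones, and the RING1B mutant line had been purchased. The libraries of a genotype are described as independent biological replicates, but whether they came from separate clones is not given in the sources used here, so any p-value covers the spread between these libraries, which may be technical. Wild-type cells were not analysed here.

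Of 57820 genes in the files, 15136 passed the filter on low counts (CPM, the count scaled to the size of the library, above 0.5 in 2 or more libraries), and all 7 genes were among them. Both tKO values lay below both dKO values in 2405 tested genes (15.9%). In 115 of these, which are 0.76% of all tested genes, the log2 fold change was also below -1. The 7 genes all belong to the 115, while the other 108 are not described one by one. By the gap between the lower dKO value and the higher tKO value, SLC16A3 had the smallest gap of the 7, at 0.87 on the log2-CPM scale. CYYR1, with a gap of 0.92, and DIRAS3, with a gap of 0.87, stood next to it in that order and were not among the 7. In all, 35 other genes had a larger gap than SLC16A3, so the genes are examples of the pattern and not its full extent. Because the contrast between genotypes chose them, their differences are given as a description with no test.

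The genes encode proteins of unrelated kinds. SPARC is a secreted calcium-binding glycoprotein that binds collagen and modulates contacts between cells and matrix, and TIMP3 is the matrix-bound member of the tissue inhibitors of metalloproteinases, which block the proteases that degrade the matrix. SLC16A3, also called MCT4, carries lactate and protons out of glycolytic cells together with its chaperone basigin. LRRN2 is a membrane protein with leucine-rich repeats, CARMIL2 binds the actin capping protein and RIMBP2 is a scaffold of the presynaptic active zone that links RIM proteins to calcium channels. KIAA1549L is a paralog of KIAA1549, a membrane protein of poorly known function. In cells with intact PRC1, ubiquitinated H2A is a mark of genes held silent by Polycomb, and neither genotype studied here can place it.

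The targeted genes were examined first. BAP1 had 2046 and 2010 counts in dKO, and 158 and 107 counts in tKO (log2 fold change -3.77, limma adjusted p = 0.0065). RING1 had between 12 and 17 counts in every library, and RNF2, which encodes RING1B, had between 1102 and 1561, so that the tKO libraries are told from the dKO libraries by BAP1 and not by these. The libraries held between 16054590 and 18455410 counts in genes (3 counts, the limit set for a gene with 0 counts, equal 0.163 to 0.187 CPM). BAP1 and SERPINB9 were differentially expressed (DE, adjusted p below 0.05 and absolute log2 fold change above 1), which is 2 of 15136 genes lower in tKO (0.0132%) and 0 higher (0%). None of the 7 genes was DE in limma with genotype as the single term. All 7 had an unadjusted limma p-value below 0.05, as had 538 of the 15136 tested genes. The edgeR quasi-likelihood test called 0 of the 7 and 1 of the 15136 DE, and DESeq2 called 5 of the 7 and 25 of the 15136. Limma with the replicate number as a block called 1 of the 7, RIMBP2, and 13 of the 15136. These counts rest on the contrast that chose the genes, and nothing is read from them.

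The lower levels in tKO had 3 forms. SPARC, TIMP3, LRRN2 and SLC16A3 were lower in tKO 1 than in dKO and lower again in tKO 2. KIAA1549L and CARMIL2 stood at nearly the same reduced level in both tKO libraries. RIMBP2 was at or next to 0 in both.

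**Figure D1:**
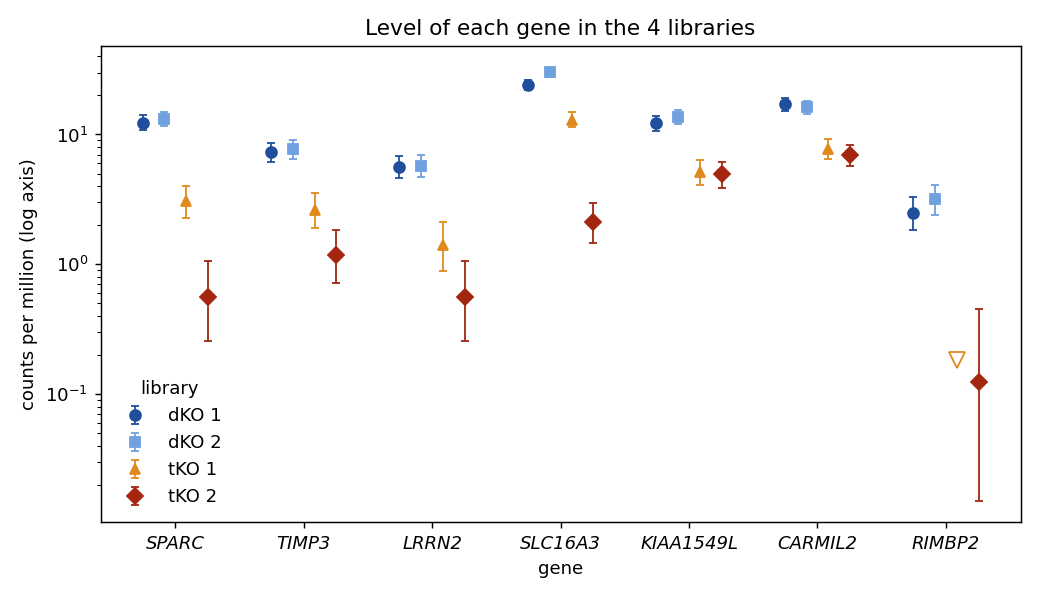
Level of each of the 7 genes in CPM (vertical log axis) in the 4 libraries, with 1 point per library and bars for the 95% exact Poisson interval of the count; the open triangle is the limit of 3 counts for RIMBP2 in tKO 1, which had 0 counts. The points of the dKO libraries lie close together for every gene, and those of tKO 1 and tKO 2 lie apart for SPARC, TIMP3, LRRN2 and SLC16A3.

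SPARC (ENSG00000113140.6) lies on the minus strand of chromosome 5 (151040657 to 151066536, GRCh37, as for all gene positions here). It had 227 and 237 counts in dKO, 50 in tKO 1 and 9 in tKO 2. These are levels of 12.3, 13.2, 3.05 and 0.561 CPM. The dKO libraries were alike and high, tKO 1 was intermediate and tKO 2 was lowest. Relative to the dKO mean, tKO 1 had 23.9% of the level (95% exact interval 17.5 to 32.1) and tKO 2 had 4.40% (2.00 to 8.43). These intervals, like all others given here, cover counting error only and not the spread between libraries of a genotype. Reads amplified by PCR are not independent molecules, so the intervals may be too narrow even for counting error. Mean levels were 12.7 ± 0.618 CPM in dKO against 1.80 ± 1.76 CPM in tKO (SD, n = 2 each), and the log2 fold change was -3.13 (standard error 0.66). The tKO spread was thus as wide as the tKO mean. In a bulk library, fewer cells that transcribe a gene and less RNA per cell cannot be told apart.

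TIMP3 (ENSG00000100234.11, chromosome 22, 33197691 to 33259028, plus strand) had 135 and 138 counts in dKO, 43 in tKO 1 and 19 in tKO 2, or 7.31, 7.67, 2.62 and 1.18 CPM. It followed the order seen for SPARC, with a smaller step between the tKO libraries. The share of the dKO mean was 35.0% in tKO 1 (24.7 to 48.4) and 15.8% in tKO 2 (9.37 to 25.2). The means were 7.49 ± 0.251 CPM (SD, n = 2) and 1.90 ± 1.02 CPM (SD, n = 2), and the log2 fold change was -2.01 (standard error 0.38).

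LRRN2 (ENSG00000170382.7, minus strand of chromosome 1, 204586298 to 204654866) had 104 and 103 counts in dKO, 23 in tKO 1 and 9 in tKO 2. Its levels were 5.64, 5.73, 1.40 and 0.561 CPM, with dKO libraries that hardly differed. The tKO libraries had 24.7% (15.3 to 38.0) and 9.87% (4.45 to 19.1) of the dKO mean, and the log2 fold change was -2.51 (standard error 0.42).

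SLC16A3 (ENSG00000141526.10, chromosome 17, 80175810 to 80219005, plus strand) was the gene with the widest step between the tKO libraries. It had 444 and 542 counts in dKO, 214 in tKO 1 and 34 in tKO 2, or 24.1, 30.1, 13.0 and 2.12 CPM. The share of the dKO mean was 48.1% in tKO 1 (41.4 to 55.9) but 7.82% in tKO 2 (5.39 to 11.0). The log2 fold change was -2.31 (standard error 0.73), with the largest error of the 7. Without tKO 2 it was -1.02, and without tKO 1 it was -3.61. SLC16A3 was also the only one of the 7 whose dKO libraries differed by more than counting error, with a dKO 2 to dKO 1 ratio of 1.25 (1.10 to 1.42).

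KIAA1549L (ENSG00000110427.10, chromosome 11, 33397654 to 33695648, plus strand) had 226 and 246 counts in dKO, and 84 and 79 in tKO. Its levels of 12.2, 13.7, 5.12 and 4.92 CPM put both tKO libraries at the same place, 39.5% (31.0 to 49.9) and 38.0% (29.6 to 48.3) of the dKO mean. The log2 fold change was -1.34 (standard error 0.19). CARMIL2 (ENSG00000159753.9, chromosome 16, 67678891 to 67691472, plus strand) behaved alike, with 315 and 293 counts in dKO and 127 and 111 in tKO. These were 17.1, 16.3, 7.74 and 6.91 CPM, or 46.4% (38.0 to 56.2) and 41.5% (33.5 to 50.8) of the dKO mean in tKO 1 and tKO 2. The log2 fold change was -1.17 (standard error 0.18), the smallest change and the smallest error of the 7.

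RIMBP2 (ENSG00000060709.9, chromosome 12, 130880678 to 131252773, minus strand) was the least abundant of the 7 in dKO, at 46 and 57 counts (2.49 and 3.17 CPM). It had 0 counts in tKO 1 and 2 counts in tKO 2. With 0 counts, tKO 1 was at least 15.5-fold lower than the dKO mean, taking the limit of 3 counts in that library. The 2 counts over both tKO libraries, against 103 in dKO, correspond to 2.18% of the dKO level (95% exact interval 0.260 to 8.08). The fitted log2 fold change of -4.13 depends on the prior count added before taking logs, and was -5.98 with a prior count of 0.25.

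**Figure D2:**
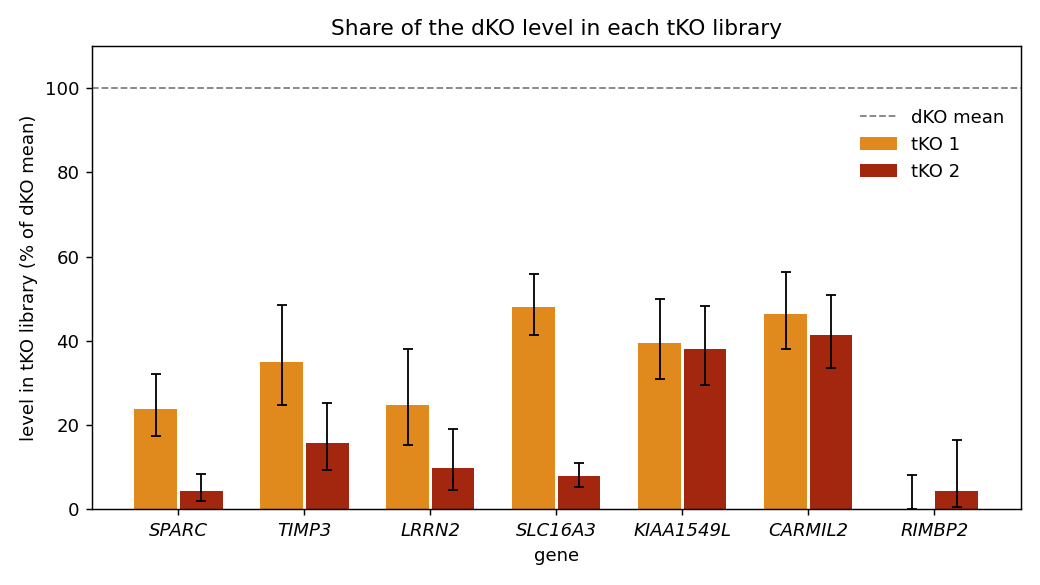
Level of each gene in tKO 1 and tKO 2 as a percentage of the dKO mean (bars, axis from 0), with 95% exact intervals of the ratio of counts as lines and the dKO mean as a dashed line at 100. SLC16A3 had 48.1% in tKO 1 and 7.82% in tKO 2, whereas the bars of KIAA1549L (39.5% and 38.0%) and CARMIL2 (46.4% and 41.5%) are of nearly equal height.

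The choice of genes did not use the difference between the tKO libraries directly, but was not independent of it, as the shares given below show. For SPARC the level in tKO 2 was 0.184 times that in tKO 1 (0.0796 to 0.378), and for SLC16A3 it was 0.162 times (0.110 to 0.234). TIMP3, at 0.452 times (0.249 to 0.792), and LRRN2, at 0.40 times (0.163 to 0.897), had wider intervals that also stayed below 1. The ratio was 0.961 for KIAA1549L (0.698 to 1.32) and 0.894 for CARMIL2 (0.686 to 1.16), so no difference between the tKO libraries was detectable at this depth for these genes. With 1 library on each side, these ratios compare libraries and not conditions. Of the 7 genes, 6 were lower in tKO 2 than in tKO 1, against 49.6% of all tested genes and 78.3% (90 genes) of the 115 genes that met the same conditions. The difference was over 2-fold on the log2-CPM scale in 4 of the 7. The share lower by over 2-fold was 3.40% of all tested genes and 49.6% (57 genes) of the 115, so a lower level in tKO 2 was common among genes with this pattern. Among the 500 tested genes nearest in mean log2-CPM, 1.4% differed between the tKO libraries by as much as SPARC and 0.2% by as much as SLC16A3, against 8.8% for TIMP3 and 10.6% for LRRN2. These 500 genes were not limited to genes with the pattern, among which such differences were more common. The dKO 2 to dKO 1 ratios of the other 6 genes lay between 0.954 and 1.27, with intervals that all included 1.

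**Figure D3:**
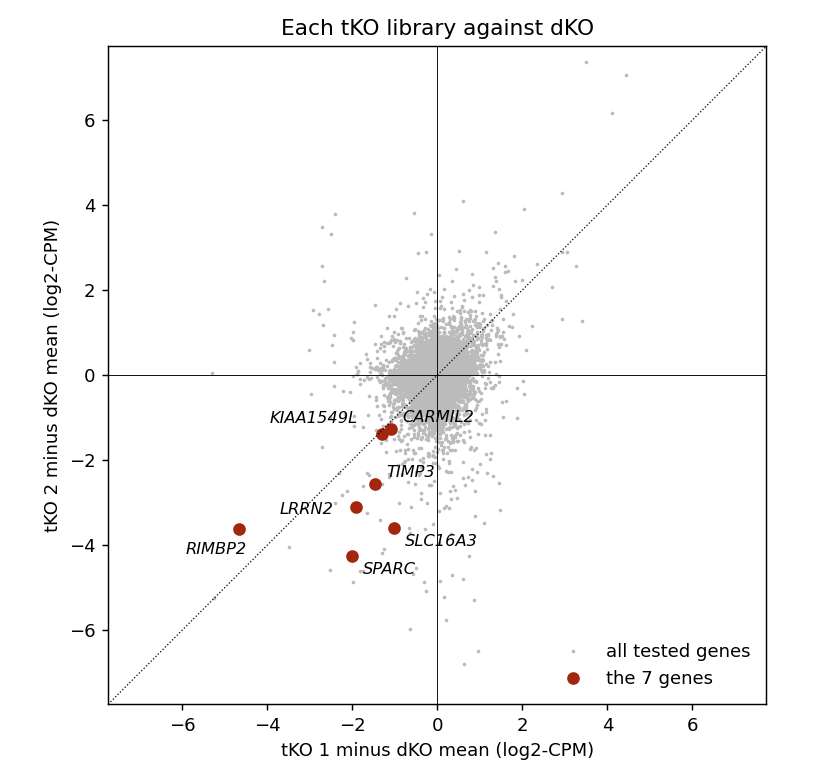
Difference from the dKO mean in tKO 1 (horizontal axis) and tKO 2 (vertical axis), both in log2-CPM, for all 15136 tested genes (grey) and the 7 genes (red), with the dotted line marking equal values. KIAA1549L and CARMIL2 lie next to the line, SPARC, TIMP3, LRRN2 and SLC16A3 below it, and RIMBP2 above it at the far left.

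The start regions of the genes were compared for shared sequence. RefSeq windows of 300 bases (build GRCh38.p14, 250 bases before and 50 after a transcript start) were found for 5 of the 7 genes, all but KIAA1549L and CARMIL2, with 11 windows in all because SLC16A3 and RIMBP2 have several starts. The windows of the 4 genes with a step between the tKO libraries are shown, since these genes had the same order of levels over the libraries. For SLC16A3 the window shown is the one of 5 with the most motif matches, a choice made after they were counted. Letters in capitals mark GGGCGG, the core of the GC box, or ACGTG, a common form of the core of the hypoxia response element, read on either strand.

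SPARC, chr5:151686866-151687165, minus strand: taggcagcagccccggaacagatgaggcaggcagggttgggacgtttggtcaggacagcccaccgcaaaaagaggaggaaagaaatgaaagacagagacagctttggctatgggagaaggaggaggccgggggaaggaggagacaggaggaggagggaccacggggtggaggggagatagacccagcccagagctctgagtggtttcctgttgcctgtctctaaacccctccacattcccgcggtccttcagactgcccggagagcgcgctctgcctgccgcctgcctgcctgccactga

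TIMP3, chr22:32801455-32801754, plus strand: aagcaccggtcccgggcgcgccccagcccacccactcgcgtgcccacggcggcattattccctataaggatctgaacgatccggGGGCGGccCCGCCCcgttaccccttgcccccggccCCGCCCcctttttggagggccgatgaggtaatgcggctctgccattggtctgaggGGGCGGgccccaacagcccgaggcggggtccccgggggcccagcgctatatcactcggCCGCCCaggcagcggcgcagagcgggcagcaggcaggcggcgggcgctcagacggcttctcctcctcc

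LRRN2, chr1:204685689-204685988, minus strand: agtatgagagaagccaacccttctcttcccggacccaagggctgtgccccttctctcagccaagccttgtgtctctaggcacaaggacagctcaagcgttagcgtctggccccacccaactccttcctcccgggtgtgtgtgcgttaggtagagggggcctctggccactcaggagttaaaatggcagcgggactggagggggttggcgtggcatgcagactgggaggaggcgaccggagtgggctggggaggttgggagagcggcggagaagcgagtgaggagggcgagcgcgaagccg

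SLC16A3, chr17:82228792-82229091, plus strand: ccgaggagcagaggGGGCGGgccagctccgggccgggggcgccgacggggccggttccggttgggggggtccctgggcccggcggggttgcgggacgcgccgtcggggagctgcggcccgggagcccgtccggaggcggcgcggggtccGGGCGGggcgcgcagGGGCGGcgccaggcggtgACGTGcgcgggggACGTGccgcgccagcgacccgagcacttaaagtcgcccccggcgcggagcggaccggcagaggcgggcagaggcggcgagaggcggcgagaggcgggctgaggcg

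These 4 windows had little in common. The TIMP3 window held the GC box core 5 times and had 72.7% GC and 31 CpG dinucleotides. The SLC16A3 window held the GC box core 3 times and the hypoxia core 2 times, with 82.7% GC and 51 CpG, more than in 99.0% of all windows. The windows of SPARC (61.3% GC, 11 CpG) and LRRN2 (63.3% GC, 16 CpG) held neither motif. Over the 35114 windows of all genes, the median was 58.7% GC and 14 CpG, 45.0% held the GC box core and 21.4% held the hypoxia core. The TATA box motif TATAAA, held by 11.5% of all windows, was in none of the 11, and neither was the E-box CACGTG, which contains the hypoxia core and was held by 7.26%. One of the 3 RIMBP2 windows held the hypoxia core 2 times and the GC box core 1 time. A match is a run of letters only, and no binding was measured.

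The 7 genes lie on 7 different chromosomes, and the genes beside them did not share their levels. Of the 70 nearest tested genes, 5 on each side of each gene, 9 (12.9%) were lower in both tKO libraries than in both dKO libraries, against 15.9% of all tested genes. None passed the adjusted p-value in limma, and 1 had an unadjusted p-value below 0.05, MDM4 beside LRRN2, which was higher in tKO (log2 fold change 0.29). The log2 fold changes of the 70 ran from -0.62 to 1.07. The nearest tested gene with a symbol after SPARC was ATOX1, a copper chaperone, at 0.00, and the genes beside KIAA1549L were HIPK3, a kinase, at -0.25 and CD59, an inhibitor of complement, at -0.10. Beside CARMIL2 were CTCF, the chromatin insulator protein, at 0.14 and ACD, a shelterin subunit, at -0.01. Beside RIMBP2 were the peptide transporter SLC15A4 at 0.08 and the syntaxin STX2 at -0.07.

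**Figure D4:**
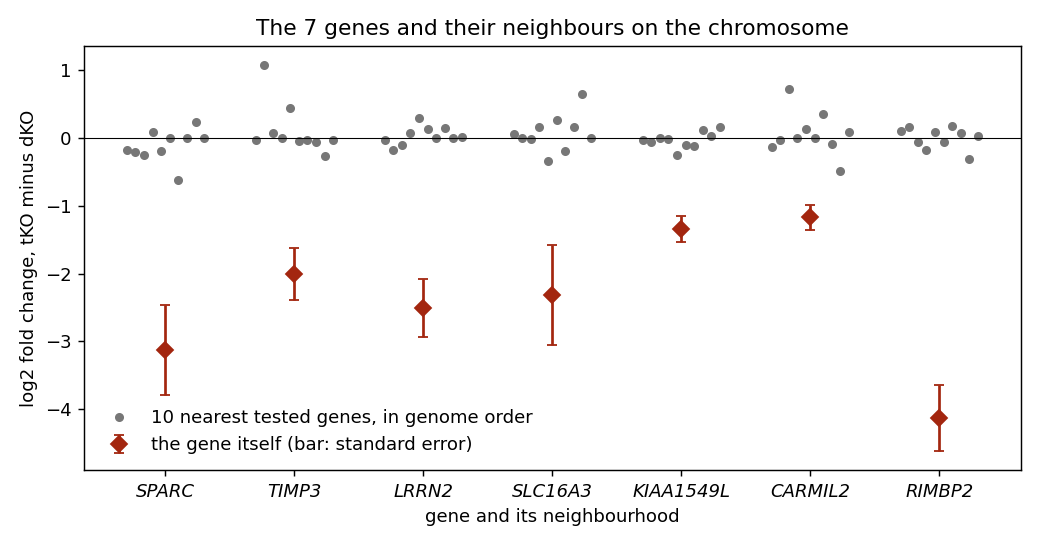
Log2 fold change (tKO minus dKO) of each of the 7 genes (red diamonds, with standard error) and of its 10 nearest tested neighbours on the chromosome (grey points, in genome order). The neighbours lie between -0.62 and 1.07, and each of the 7 genes lies below all 10 of its neighbours.

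TIMP3 and SLC16A3 are overlapped by genes on the opposite strand, which matters for how their reads were assigned. TIMP3 lies inside SYN3, a synapsin gene with 287 and 382 counts in dKO, 266 in tKO 1 and 593 in tKO 2, so that SYN3 was not lower in tKO as TIMP3 was. SLC16A3 shares 482 exonic bases with CSNK1D, a casein kinase gene with 1974 to 2610 counts per library and a log2 fold change of 0.26. Counts from the strand of the gene alone were used, so reads from the strand of these partners were left out. With unstranded counts the log2 fold change was -2.08 for TIMP3 and -2.12 for SLC16A3. CARMIL2 shares 58 exonic bases with ACD (432 to 600 counts).

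Set per kilobase of exon, SLC16A3 and SPARC were the most abundant of the 7 in dKO, at mean levels of 2.93 and 2.75 CPM per kilobase, and their libraries overlapped. CARMIL2 followed at 2.17 and TIMP3 at 1.63 CPM per kilobase. LRRN2 and KIAA1549L, at 0.999 and 0.960 CPM per kilobase, could not be placed in order because their libraries overlapped, and RIMBP2 was lowest at 0.263 CPM per kilobase. In tKO the mean order was headed by CARMIL2 at 0.953 and SLC16A3 at 0.820 CPM per kilobase, but the tKO libraries of SLC16A3 ran from 0.229 to 1.41 and so did not place it. Exon lengths are those of GENCODE release 44, and reads had been counted over release 19.

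The relatives of each gene, listed by role, were next compared between the genotypes. Of 176 other genes in these lists, 112 were tested. None passed an adjusted p-value of 0.05 in limma, in DESeq2 or with the edgeR quasi-likelihood test, and at an unadjusted p-value below 0.05 there were 3 lower and 4 higher. Some of them passed the adjusted p-value when either tKO library was left out. The share of all tested genes past that threshold in those fits was not computed, so nothing is read from this. Both tKO values were below both dKO values in 21 of the 112 (18.8%), against 15.9% of all tested genes, and their median log2 fold change was -0.05, against 0.00 for all tested genes.

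Among matrix proteins, SPARC had 5 tested relatives of 7. SPARCL1, its closest paralog, had 7 and 12 counts in dKO against 23 and 41 in tKO, a log2 fold change of 1.70 (standard error 0.44) opposite in sign to that of SPARC and not past the threshold (limma adjusted p = 0.996). FSTL1, another secreted glycoprotein of the family, had 2445 to 3458 counts and stood at -0.20. SPOCK1, a testican proteoglycan, had 179 and 227 counts in dKO, 142 in tKO 1 and 542 in tKO 2. Of 20 further matricellular proteins and partners, 9 were tested, with a median log2 fold change of -0.05, from -0.66 for THBS4 to 0.62 for the thrombospondin THBS1.

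Among the inhibitors of metalloproteinases, TIMP1 had 441 and 402 counts in dKO, 245 in tKO 1 and 42 in tKO 2. As for SLC16A3 and TIMP3, both dKO libraries were highest, tKO 1 was intermediate and tKO 2 was lowest, with a log2 fold change of -1.85 and a standard error of 0.70 (limma adjusted p = 0.996). TIMP2, with 1250 to 1698 counts, had a log2 fold change of -0.13. Of the 44 proteases of the families that TIMPs inhibit, 22 were tested and none passed. The gelatinase MMP2 had a log2 fold change of 0.80, the membrane protease MMP15 of -0.69, and the median was -0.11. The furthest were ADAMTS19 at 2.00, with 4 to 42 counts per library, and ADAMTS15 at -0.83.

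Of 10 fibroblast markers, 4 were tested and none passed the adjusted p-value in limma. The summed level of 10 such markers was 188 and 186 CPM in dKO, 158 CPM in tKO 1 and 138 CPM in tKO 2. COL1A2, COL3A1 and PDGFRB, which define these cells, were at 0 counts in every library, and LUM, DCN and FAP had at most 1 count, so the sum came from PDGFRA, THY1, COL1A1 and ACTA2. Of these, THY1 had the largest difference, with a log2 fold change of -0.60, and PDGFRA stood at -0.23. THY1 and PDGFRA were lower in both tKO libraries than in both dKO libraries, as were 15.9% of all tested genes. COL1A1, at 0.03, and ACTA2, at -0.23, were not. ACTA2 had 84 and 104 counts in dKO, 47 in tKO 1 and 106 in tKO 2. The part of these markers in the levels of SPARC and TIMP3 was not tested. The blood markers PTPRC, SPI1 and GATA1 had at most 1 count per library although the line derives from a leukaemia, and of 10 markers KIT alone passed the filter, with a summed level of 46.6 to 58.9 CPM. The 10 epithelial markers summed to 19.4 to 24.6 CPM, with EPCAM at 0. Of the 10 neuronal markers, 1, NEFL, was not matched to an identifier, and the rest summed to 37.2 to 57.2 CPM, with ELAVL4 at 0. Neither sum kept the genotypes apart.

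None of the tested partners of SLC16A3 in lactate transport and metabolism passed the threshold. SLC16A1, the other main lactate transporter, had 4725 to 5476 counts and a log2 fold change of -0.01. BSG, which encodes basigin, stood at -0.01, and the lactate dehydrogenases LDHA and LDHB at 0.02 and 0.08. LDHD, which acts on D-lactate, did not pass the filter on low counts, with 7 and 15 counts in dKO and 1 and 2 in tKO. Of 19 relatives and partners, 14 were tested, and 4 of these were lower in both tKO libraries than in both dKO libraries, against 15.9% of all tested genes, the furthest being SLC16A6 at -0.70 and SLC16A4 at 0.35. All 20 genes of glycolysis and glucose uptake were tested, none passed, and the median log2 fold change was -0.02. The glucose transporter SLC2A3 was lowest at -0.87, with 80 and 88 counts in dKO, 91 in tKO 1 and 17 in tKO 2. SLC2A1, the other glucose transporter, was at 0.17.

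None of the paralogs of the remaining genes passed the threshold. LRRN1 had 1736 and 1689 counts in dKO, 2357 in tKO 1 and 596 in tKO 2 (log2 fold change -0.36, standard error 0.55). Its tKO libraries lay on either side of dKO. LRRN3 was at 0.15. Among 23 leucine-rich repeat proteins of neurons other than LRRN2, 10 were tested and none passed. KIAA1549 was at -0.06. CARMIL1 and CARMIL3 were at -0.05 and -0.07, and the subunits of capping protein CAPZA1, CAPZA2 and CAPZB were between 0.02 and 0.03. The furthest of the 9 tested capping genes was TWF2, a twinfilin, at -0.60. Of 28 other active zone genes, 20 were tested and none passed. The RIM genes RIMS1, RIMS2, RIMS3 and RIMS4, whose proteins RIMBP2 binds, had log2 fold changes between -0.18 and 0.30. The furthest were the liprin PPFIA2 at -0.65 and the scaffold BSN at 0.56.

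**Figure D5:**
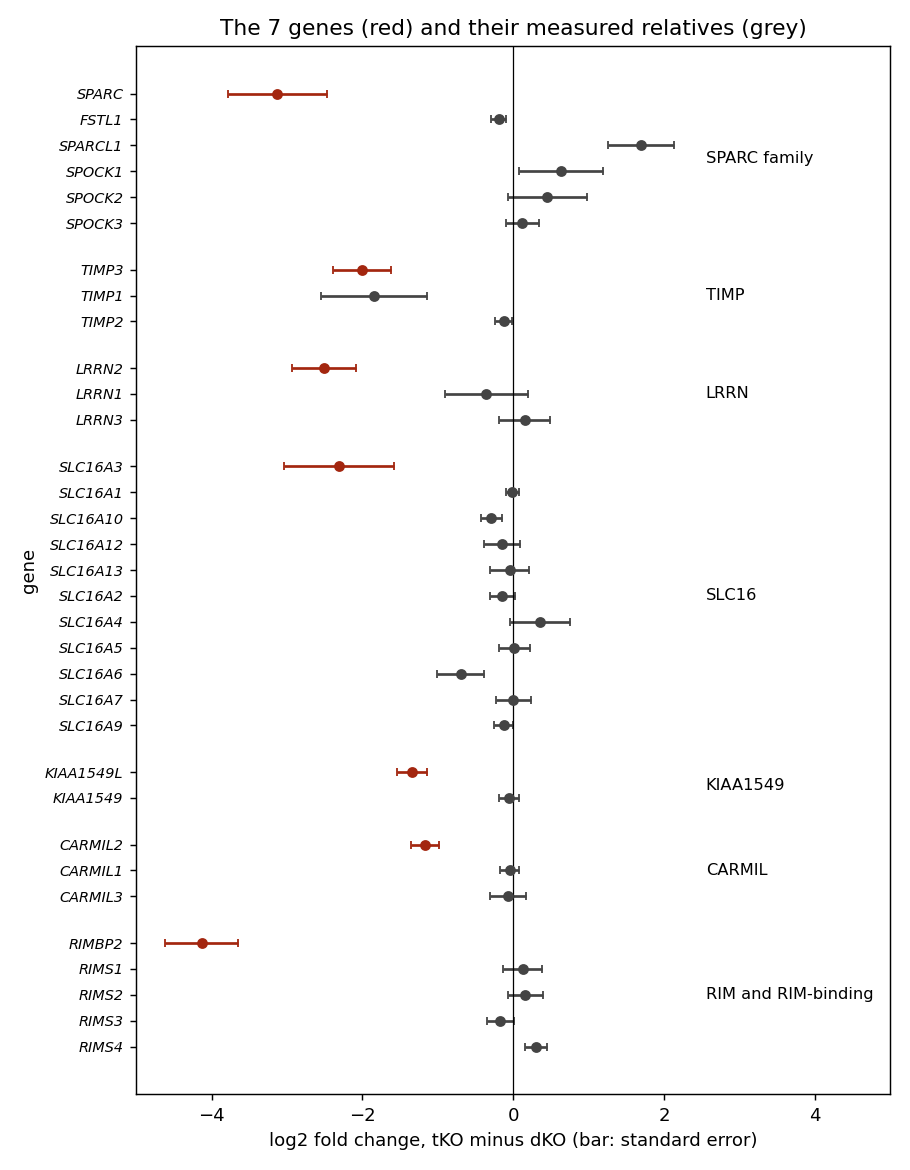
Log2 fold change (tKO minus dKO, with standard error) of the 7 genes (red) and of their tested relatives (grey), grouped by family. TIMP1 at -1.85 is the relative nearest to its member, and SPARCL1 at 1.70 has the opposite sign to SPARC.

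The tested genes most like each of the 7 were found by the Euclidean distance, over the 4 libraries, between log2-CPM values less the dKO mean. ZNF681 and KCNE3 were nearest to SPARC, at distances of 0.469 and 0.559. KCNE3, a potassium channel subunit, had 90 and 66 counts in dKO, 19 in tKO 1 and 1 in tKO 2. ZNF730 and SERPINF1 (distances 0.248 and 0.341) were nearest to TIMP3, ZNF726 and ESRRB (0.333 and 0.423) to LRRN2, and VWC2 and NTRK3 (0.385 and 0.426) to SLC16A3. The zinc finger genes ZNF681, ZNF730 and ZNF726 all lie on chromosome 19. Other zinc finger genes of that chromosome were not compared here, so the likeness is not given as particular to these. CASP4, an inflammatory caspase with 20 and 21 counts in dKO and 7 and 6 in tKO, was nearest to both KIAA1549L (0.134) and CARMIL2 (0.175). After it came TMEM14B-DT (0.177) for KIAA1549L and the kinase PAK6 (0.190) for CARMIL2. The genes nearest to RIMBP2 were BAP1 (1.26) and SERPINB9 (1.75), which were far from it by this measure.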

How the data were processed

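Stranded RNA-seq libraries were prepared after selection of polyadenylated transcripts, 2 per genotype, and samples were grouped by their titles. The authors trimmed reads with cutadapt (1.12) through Trim Galore (0.4.4), removed ribosomal reads with Bowtie (1.2) and mapped the rest to GRCh37 (hg19) with STAR (2.5.2b), which counted uniquely mapped reads over GENCODE release 19 exons. The deposited values are raw read counts per gene, with no normalisation. Counts of the strand that holds most gene reads were used; the other strand took 4.01% to 4.24% of stranded gene reads. Symbols, positions and exon lengths came from GENCODE release 44 on GRCh37 (97.5% of tested genes had a symbol). The 4 summary lines for reads outside genes were left out.

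The filter required CPM above 0.5 in 2 or more libraries. TMM factors and log2-CPM values (prior count 2) were computed in edgeR (4.0.16). A model with genotype as its single term was then run in limma (3.58.1, R 4.3.3) with a mean-variance trend and Benjamini-Hochberg adjustment over all tested genes. The filter, TMM, the use of limma and the DE thresholds follow the study's methods, while the trend, and applying the filter to these 4 libraries alone, were chosen here. Fold changes on this scale understate changes of genes with few counts. CPM levels printed for single libraries use library totals. Intervals of counts are exact Poisson and those of ratios are exact binomial on the pair of counts, at 95%. The genes, and the lists of their relatives, were chosen with earlier results of these data known. Named genes were the 7 genes, the targeted genes, the DE genes, paralogs of the 7, the furthest tested gene of each list in each direction, the nearest neighbour on each side, overlapping genes and the 2 genes closest in pattern; others were chosen after their values were seen. Of the listed genes, 4 were not matched to an identifier. The alternatives tried were edgeR and DESeq2 (1.42.0), limma-voom, no trend, the replicate number as a block, other scalings, filters and prior counts, unstranded counts and leaving out each library.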

Additional observations from a re-analysis of the deposited data

Results flagged for a closer look

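SLC16A3 had reads on the strand opposite to that used, namely 10 and 10 counts in the dKO libraries against 14 (tKO 1) and 11 (tKO 2). It drew attention as a signal in a column that the comparisons did not use, higher in both tKO libraries (0.853 and 0.685 CPM) than in both dKO libraries (0.542 and 0.556 CPM). These differences are within counting error, since the 95% exact Poisson interval of 10 counts is 4.80 to 18.4 and that of 14 counts is 7.65 to 23.5. CSNK1D, which lies on that strand and shares exonic bases with SLC16A3, had 2610, 1974, 2457 and 2358 counts in the same order; its part in these reads was not tested.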

How the results depend on the processing

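Counting each of the 7 genes in each refit, all 88 log2 fold changes were below 0, a sign that the choice of genes largely fixed. Limma-voom and limma without a trend were not included in the 88. RIMBP2 could not be tested at CPM above 5 or without 1 dKO library. Without 1 tKO library the log2 fold changes ran from -2.01 to -4.26 for SPARC, -1.46 to -2.56 for TIMP3, -1.92 to -3.11 for LRRN2, -1.02 to -3.61 for SLC16A3, -1.30 to -1.38 for KIAA1549L, -1.08 to -1.26 for CARMIL2 and -3.62 to -4.68 for RIMBP2. The number of DE genes, 2 in limma, was 1 with the edgeR quasi-likelihood test, without a trend, at CPM above 5 and with unstranded counts, 0 with no filter and 25 with DESeq2; 538 genes had an unadjusted p-value below 0.05 in limma and 1447 with no filter. Without a trend BAP1 was not DE. With the replicate block the number was 13, of which RIMBP2 was the single one of the 7 genes. Deviations of same-numbered libraries had a correlation of 0.0581 over tested genes, so the numbers were not taken to pair the libraries. Leaving out 1 library moved the number of DE genes between 0 (either dKO library) and 480 (tKO 1; 175 without tKO 2), list genes past the adjusted p-value between 0 and 21, and genes lower in all tKO than in all dKO libraries between 4055 and 5518, against 2, 0 and 2405. Without a tKO library the lone one is assumed to vary as the dKO pair does, and the condition on both tKO values then rests on 1 value. The cause of the other shifts was not tested. Depth limits what can be said of RIMBP2 in tKO and of LRRN2 and SPARC in tKO 2, which rest on 9 or fewer counts.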

Other observations

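Some relatives of the 7 genes had tKO libraries that stood apart in the opposite sense, a selection made after their values were seen. LRRC4C, a leucine-rich repeat ligand at synapses, had 32 and 53 counts in dKO, 4 in tKO 1 and 224 in tKO 2. Its log2 fold change, -0.08 (standard error 1.48), therefore stood for neither library. ADAMTS12, a matrix protease, had 423 and 506 counts in dKO, 329 in tKO 1 and 700 in tKO 2. PFKP, a phosphofructokinase, was lower in tKO 1 alone, with 1243 counts against 3281 in tKO 2 and 3406 and 3432 in dKO. PFKFB3, another gene of the glycolysis list, was also lowest in tKO 1, with 680 counts against 1137 in tKO 2 and 1415 and 1372 in dKO. The lower level in tKO 1 was therefore not particular to PFKP. Other genes near PFKP on its chromosome were not compared here.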
